A study of Mus musculus with 2 samples.

Results

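Single fibroblasts whose clock reporter transcript was high for the amount of reporter protein they held (leading cells) were compared with cells of the same sort gate whose transcript was low for their protein (lagging cells). The series holds 768 cells of 1 unsynchronized mouse fibroblast line on 2 plates, and 767 cells with at least 1000 genes detected entered the ranking. Within each plate and sort gate, every cell was ranked by the CPM of the Venus reporter transcript (listed as YFP; CPM is counts scaled to a common library total) and by the area of its Venus signal in the imaging channel of the sorter. The rank of the protein was subtracted from the rank of the transcript. Each gate was then cut into 3 groups of near equal size, so cells were selected on measured transcript and protein values. The highest differences gave 255 leading cells, the lowest 255 lagging cells, and 257 cells lay in the middle group. Raw counts were summed per gate and plate, so the comparison rests on 8 pairs of sums.

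Every cell in every group carried the same genotype, NIH3T3-Rev-VNP1-H2B-iRFP, and had the same growth history in unsynchronized culture to 95% confluency, without any treatment. Rev-VNP is known as a reporter in which regulatory sequence of Nr1d1 (Rev-erb alpha) drives a short-lived nuclear Venus, and H2B-iRFP is a near-infrared histone tag. Whether the line is 1 clone was not given in the sources used here. The labels of each plate name 2 iRFP bins, whereas the image names in the sorting record give only the high iRFP sort on plate 1 and only the low sort on plate 2. By that record, the iRFP sort and the plate cannot be told apart. On each plate 4 gates of 96 cells ran from dim (Venus gate 1) to bright (Venus gate 4). Both ranks were taken inside a gate, so leading and lagging cells came from the same sorted range of Venus, though leading cells were dimmer within it by the rule. The sums held 24389512 to 29110145 counts. The median cell held 840734 counts in the leading and 840587 counts in the lagging group. All 768 cells had distinct names and none shared identical counts.

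In the circadian clock of fibroblasts, CLOCK and BMAL1 (the product of Arntl) activate genes through E-boxes. Their targets include the Per and Cry repressors, the Rev-erb genes and the PAR bZIP factors, among them Dbp and Tef, which act on D-boxes. REV-ERB proteins in turn repress genes that carry ROR response elements (ROREs), such as Arntl, Nfil3 and Cry1. Cry1 is known for answering to both kinds of element and for peaking later than the Per genes. A protein trails its transcript, so a reporter transcript high for its protein is the pattern of a rising reporter, and the reverse is the pattern of a falling one. The transcript was scaled to each cell's counts, whereas the Venus area was not scaled to cell size. The rank difference alone therefore cannot tell reporter phase from cell size. Which other transcripts separated the leading from the lagging cells was the question.

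The promoter windows of both clock genes whose summed counts separated the groups, Cry1 and Arntl, are shown first. Both genes were placed in the list of RORE clock genes. The sequences are from RefSeq on the GRCm38.p6 build, each 300 bases long and written 5′ to 3′ on the gene's own strand. Capitals mark matches to the E-box CACGTG, the D-box TTANGTAA, or the RORE core TAGGTCA or TGGGTCA, searched on both strands. The Cry1 window lies at chr10:85185005-85185304 on the minus strand and holds an E-box match. Arntl has 2 overlapping windows, of which 1 holds no match and the other is shown. The window shown lies at chr7:113207261-113207560 on the plus strand and holds a RORE core match.
Cry1: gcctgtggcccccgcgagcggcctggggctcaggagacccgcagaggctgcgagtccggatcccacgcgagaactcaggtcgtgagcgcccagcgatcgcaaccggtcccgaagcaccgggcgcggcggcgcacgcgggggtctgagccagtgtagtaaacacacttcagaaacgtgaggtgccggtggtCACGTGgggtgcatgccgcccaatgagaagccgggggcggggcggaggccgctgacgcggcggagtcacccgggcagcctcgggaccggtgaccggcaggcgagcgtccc
Arntl: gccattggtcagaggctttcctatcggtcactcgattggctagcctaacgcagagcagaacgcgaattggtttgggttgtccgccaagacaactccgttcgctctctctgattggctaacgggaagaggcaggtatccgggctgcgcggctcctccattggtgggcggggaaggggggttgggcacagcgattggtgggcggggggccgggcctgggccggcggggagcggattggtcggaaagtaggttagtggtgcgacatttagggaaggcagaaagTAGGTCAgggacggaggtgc
Of 32851 promoter windows in the table, 7.15% held the E-box, 2.32% the D-box and 6.45% the RORE core. These are shares of windows, whereas the list counts are of genes with a match in any of their windows. Some of those genes have more than 1 window. Among the 10 of 12 E-box and D-box clock genes with a window, 4 held an E-box match (Bhlhe41, Ciart, Per1 and Tef), 1 held a D-box match (Per3) and 0 held a RORE core. Per2 was not matched to a window. All 6 genes of the RORE list had a window. In that list the RORE core was found in 2 genes, Arntl and Nfil3, and the E-box in 1, Cry1.

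The values that chose the cells are described here and support nothing further. Within gates the Spearman correlation of Venus transcript and Venus area ranged from 0.148 to 0.538. The median reporter transcript was 1.54 to 15.5 times higher in the leading than in the lagging cells, with the largest ratio in the dimmest gate of plate 2. The median Venus area of the leading cells was 0.611 to 0.799 times that of the lagging cells. In gate 4 of plate 1, for example, the median transcript was 443 CPM in lagging, 648 CPM in middle and 681 CPM in leading cells, while the median Venus area was 39340668, 37551330 and 28203960 units. In that gate the last lagging cell had a rank difference of -15 and the first middle cell one of -14, and the last middle and first leading cells had 11 and 12. No Venus transcript count was found in 41 cells, of which 27 were lagging and 0 were leading. Nr1d1, which was left out of the findings because construct reads may be counted with it, averaged 350 ± 326 CPM (SD, n = 8 gates) in lagging, 556 CPM in middle and 614 ± 534 CPM in leading cells.

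At an adjusted p under 0.05, 32 of 13868 genes differed between leading and lagging cells by edgeR's quasi-likelihood test, which is 0.231% of those tested. Of these, 17 were higher in leading cells (0.123%) and 15 lower (0.108%). Without adjustment, 1709 genes had a p under 0.05. When plates were fitted singly, all 32 kept their direction on both, a description, since the genes were called on the same sums. The median log2 difference was 0.37 for the higher and -0.66 for the lower genes, against 0.01 over all genes tested. The p-values measure the spread over gates and plates of 1 culture, since no label names separate cultures. With 1 plate alone, 0 genes were called on either plate by edgeR, with 1218 genes on plate 1 and 891 on plate 2 at an unadjusted p under 0.05. DESeq2 called 344 genes on the same sums and limma 19. Leaving out the dimmest gate on both plates gave 370 calls, and leaving out only that of plate 2 gave 136.

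Cry1 fell and Arntl rose in leading cells, and both were the only called genes among the 16 clock genes tested, against 0.231% of all genes. Cry1 (ENSMUSG00000020038.11), a repressor of CLOCK and BMAL1, was measured in lagging cells at 15.1, 16.2, 20.3 and 17.7 CPM from gate 1 to gate 4 of plate 1. On plate 2 its lagging sums were at 17.0, 24.5, 22.3 and 19.4 CPM. In leading cells it was at 6.96, 10.5, 10.7 and 9.90 CPM on plate 1 and at 9.99, 10.6, 9.77 and 16.3 CPM on plate 2. The leading value was below the lagging value in all 8 pairs, and the groups overlapped only through gate 4 of plate 2, whose leading sum exceeded the lowest lagging sums. Mean levels were 19.1 ± 3.2 CPM in lagging, 15.9 ± 3.3 CPM in middle and 10.6 ± 2.6 CPM in leading cells (SD, n = 8), and the middle group lay between the others in 6 of 8 pairs. The log2 difference was -0.86 ± 0.11 (SE; edgeR adjusted p = 0.0112). It was -0.87 on plate 1 and -0.85 on plate 2. Cell by cell, the Spearman correlation of Cry1 CPM with the rank difference ranged from -0.373 to -0.079 over the gates, a description over cells that share a library plate.

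Arntl (ENSMUSG00000055116.9), which encodes the activator BMAL1, differed more between gates than between leading and lagging cells. From gate 1 to gate 4 its lagging sums were at 49.4, 36.8, 13.9 and 7.61 CPM on plate 1 and at 41.6, 38.2, 16 and 9.79 CPM on plate 2. Its leading sums were at 61.6, 52.6, 24.2 and 14.5 CPM on plate 1 and at 51.4, 52.3, 18.2 and 12.5 CPM on plate 2. Leading exceeded lagging cells in 8 of 8 pairs, though the spread between gates made the groups overlap. The log2 difference was 0.48 ± 0.08 (SE; edgeR adjusted p = 0.0488). The call is close to the threshold and held under 6 of 26 alternatives, while the value ranged from 0.33 to 0.62. Averaged over all 3 groups and both plates, Arntl was at 47.3 CPM in gate 1 and 12.0 CPM in gate 4, whereas Cry1 was at 12.4 CPM in gate 1 and 17.0 CPM in gate 4.

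**Figure D1:**
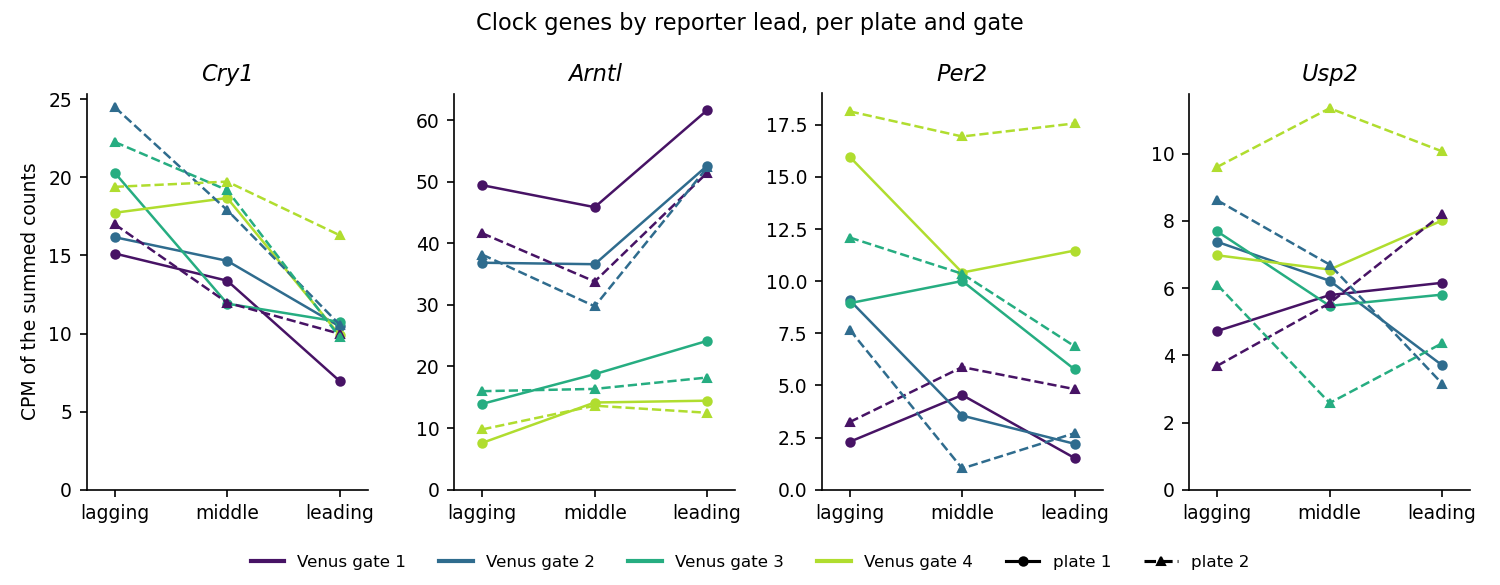
CPM of summed counts (vertical axis, linear from 0) of Cry1, Arntl, Per2 and Usp2 in lagging, middle and leading cells; each line is 1 gate on 1 plate, coloured by Venus gate, with circles for plate 1 and triangles for plate 2. Cry1 lines end lower than they start in 8 of 8 pairs and Arntl lines end higher in 8 of 8. Per2 lines end lower in all pairs but gate 1 of plate 2, and Usp2 lines are divided in direction.

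The other clock genes did not pass the threshold. Per2, a repressor that partners Cry1, was at 2.30, 9.08, 8.94 and 16 CPM in lagging cells of plate 1 and at 3.24, 7.67, 12.1 and 18.1 CPM on plate 2. In leading cells it was at 1.52, 2.20, 5.77 and 11.5 CPM on plate 1 and at 4.82, 2.71, 6.88 and 17.6 CPM on plate 2. It was lower in leading cells in 7 of 8 pairs and higher in gate 1 of plate 2. Its log2 difference of -0.68 ± 0.24 (SE) was nearly as large as that of Cry1 but less precise (edgeR adjusted p = 0.267). Usp2, a deubiquitinase with rhythmic expression, was at 6.84 ± 1.96 CPM in lagging and 6.18 ± 2.43 CPM in leading cells (SD, n = 8). Its difference was -0.18 ± 0.24 log2, with 4 pairs in each direction (edgeR adjusted p = 0.826). In the dimmest gate Usp2 was higher in leading cells on both plates, at 6.16 against 4.72 CPM and at 8.20 against 3.69 CPM, and in gate 2 it was lower on both, at 3.70 against 7.38 CPM and at 3.16 against 8.61 CPM. The test of whether its difference varied between gates did not pass (adjusted p = 0.262 by edgeR). Over all genes, 7 of 13868 varied between gates by that test (0.0505%), and 0 of the 16 clock genes did. Between plates, 0 genes varied, with 512 at an unadjusted p under 0.05.

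Of the 12 genes fixed as E-box and D-box clock genes, 11 were tested, 0 were called, and 3 had an unadjusted p under 0.05, all lower in leading cells (Tef, Per2 and Per3), where 6.41% of all genes were lower at such a p. DESeq2 called 1 of them, Tef, and limma 0, against 344 and 19 calls over all genes. The median log2 difference of the 11 genes was -0.12 against 0.01 over all genes. Tef, a D-box activator, stood at -0.23 ± 0.06 log2, lower in 6 of 8 pairs. Per3, a Period family member, stood at -0.40 ± 0.17 log2, lower in 5 of 8 pairs. Dbp, also a D-box activator, was at 41.5 ± 21.3 CPM in lagging and 43.2 ± 31.1 CPM in leading cells (SD, n = 8). Its leading sums were below the lagging ones in the dimmest gate, at 12.2 against 24.5 CPM on plate 1 and at 13.9 against 26.2 CPM on plate 2. They were above them in the brightest gate, at 77.8 against 68.6 CPM and at 89.6 against 73.9 CPM. That reversal between gates did not pass its own test (adjusted p = 0.169 by edgeR). Bhlhe41, an E-box repressor, had a like order, at -0.97 log2 in gate 1 and 0.15, 0.32 and 0.13 log2 in gates 2 to 4 (adjusted p = 0.16 for the variation). Per1, Cry2, Nr1d2, Bhlhe40 and Ciart lay between -0.12 and 0.09 log2. In the RORE list, 5 of 6 genes were tested and 2 called, 1 in each direction, with a median of -0.05. Clock, Nfil3 and Rora lay at -0.08, -0.05 and 0.11 log2. Hlf and Npas2 were too low to be tested, with means under 1 CPM in both groups. Of 12 clock kinases and ubiquitin ligase components, 0 were called and 0 had an unadjusted p under 0.05, with a median of -0.0010.

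The rank difference mixes high transcript with low protein, so each gate was also split at the median of each rank, into cells with high or low transcript and high or low protein, and both effects were fitted together on 32 sums. The reporter transcript gave 38 calls among 14072 genes (0.27%), 23 higher and 15 lower with more transcript. The reporter protein gave 0 calls by edgeR, with 846 genes at an unadjusted p under 0.05. Cry1 went with the transcript, at -0.85 ± 0.11 log2 (SE; adjusted p = 0.000321 by edgeR), and stood at 0.12 ± 0.11 log2 for the protein. Arntl was divided between both, at 0.24 ± 0.11 log2 for the transcript (adjusted p = 0.353) and -0.21 ± 0.11 log2 for the protein (adjusted p = 0.817), and neither part passed. Per2 stood at -0.86 ± 0.24 log2 for the transcript (adjusted p = 0.115) and 0.04 ± 0.24 log2 for the protein. Per3, Dbp, Bhlhe41, Tef and Nr1d2 all lay above 0 for the protein, between 0.14 and 0.30 log2, without passing the test. Whether the transcript and protein effects of a gene differ from each other was not tested.

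**Figure D2:**
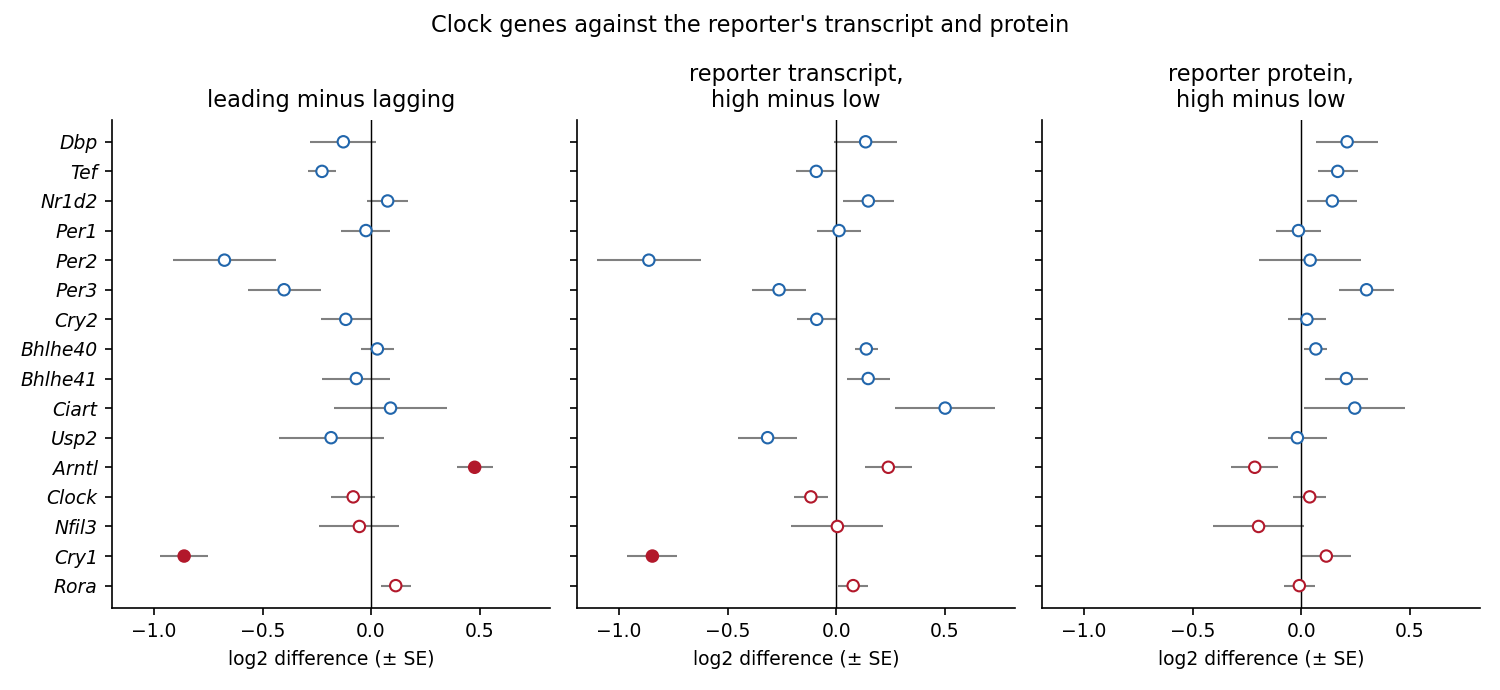
Log2 differences with standard errors (horizontal axes, shared scale) for the 16 tested clock genes in the comparison of leading with lagging cells and in the joint fit of reporter transcript and protein, high minus low; blue outlines mark the E-box and D-box list, red outlines the RORE list, and filled points passed an adjusted p of 0.05. Cry1 is filled at -0.86 for leading minus lagging and -0.85 for the transcript, Arntl is filled only for leading minus lagging, and no point is filled for the protein.

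Among the genes higher in leading cells, the rule for naming genes selected Arntl, Ddit4, Srgap3, Ptn, Bgn, Fstl1, Thra, Dact3, Gas1 and Zfhx4. Fstl1, a secreted follistatin-like glycoprotein, averaged 1218 ± 386 CPM in lagging, 1389 CPM in middle and 1563 ± 391 CPM in leading cells (SD, n = 8). It was higher in 8 of 8 pairs, by 0.39 ± 0.04 log2 (SE; adjusted p = 0.00562 by edgeR). Ptn, the heparin-binding growth factor pleiotrophin, averaged 914 ± 250 CPM in lagging and 1208 ± 208 CPM in leading cells and was higher in 8 of 8 pairs. Bgn, the matrix proteoglycan biglycan, averaged 2726 ± 1270 CPM and 3492 ± 1351 CPM and was higher in 7 of 8 pairs, with an adjusted p of 0.04996, just under the threshold. Averaged over all 3 groups and both plates, Fstl1 was at 1685, 1700, 1226 and 949 CPM in gates 1 to 4, Ptn at 1173, 1210, 951 and 776 CPM and Bgn at 4781, 3741, 2374 and 1707 CPM. All 3 secreted products were lowest in gate 4, and Fstl1 and Ptn were slightly higher in gate 2 than in gate 1. Ddit4, an inhibitor of mTORC1 signalling, rose from 64.6 ± 18.8 to 88.9 ± 23.5 CPM, by 0.47 ± 0.08 log2. Gas1, a membrane protein of growth-arrested cells, rose from 511 ± 99 to 652 ± 123 CPM. Srgap3, a GTPase-activating protein, Dact3, a Wnt pathway antagonist, and Zfhx4, a homeobox factor, rose by 0.44, 0.37 and 0.30 log2.

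Thra, the thyroid hormone receptor alpha gene, had an even difference over the pairs. Its lagging sums were at 131, 129, 133 and 145 CPM on plate 1 and at 111, 134, 127 and 133 CPM on plate 2. Its leading sums were at 176, 173, 160 and 177 CPM on plate 1 and at 161, 178, 168 and 156 CPM on plate 2. The groups did not overlap, and the middle group lay between them in 8 of 8 pairs. The log2 difference was 0.37 ± 0.04 (SE; adjusted p = 0.00562 by edgeR). Thra overlaps Nr1d1 on the opposite strand, and whether counting was stranded was not given, so reads of both genes, and any reporter construct reads of that region, cannot be told apart. The reporter transcript chose the cells, so the Thra difference cannot be told apart from that choice by these counts. Across gates Nr1d1 went from 65.5 to 1200 CPM while Thra was at 145, 154, 144 and 156 CPM. The part of the overlap in the Thra difference was not tested.

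The genes named as lower in leading cells were Kpna2, Serpinb9b, Cry1, Nav2, Mthfd1l, Tagln2, Cltb, Coro1c, Esd and Bub3, each lower in 8 of 8 pairs. Mthfd1l, a mitochondrial enzyme of one-carbon folate metabolism, was at 21.2, 32.4, 38.8 and 44.7 CPM in lagging and at 11.2, 17.4, 24.4 and 29.9 CPM in leading cells of plate 1. On plate 2 it was at 24.7, 31.8, 41.6 and 49.1 CPM in lagging and at 18.6, 22.1, 26.2 and 36.8 CPM in leading cells. Its level was higher in each brighter gate of both groups, and the log2 difference was -0.63 ± 0.07 (SE; adjusted p = 0.00562 by edgeR). Nav2, a neuron navigator protein, averaged 28.3 ± 6.5 CPM in lagging, 22.2 CPM in middle and 15.98 ± 2.47 CPM in leading cells. The leading sums of Nav2, 12.3 to 19.4 CPM, lay below all lagging sums, 20.4 to 37.4 CPM. Serpinb9b, of the serine protease inhibitor family, fell from 29.0 ± 9.3 to 15.6 ± 5.3 CPM. The actin-binding Tagln2 and Coro1c, the clathrin light chain Cltb, the esterase Esd and the spindle checkpoint gene Bub3 fell by smaller amounts, between -0.35 and -0.23 log2. Kpna2, a nuclear import receptor known to be high in dividing cells, averaged 131 ± 53 CPM in lagging and 64.8 ± 14.0 CPM in leading cells, a log2 difference of -0.93 ± 0.13.

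**Figure D3:**
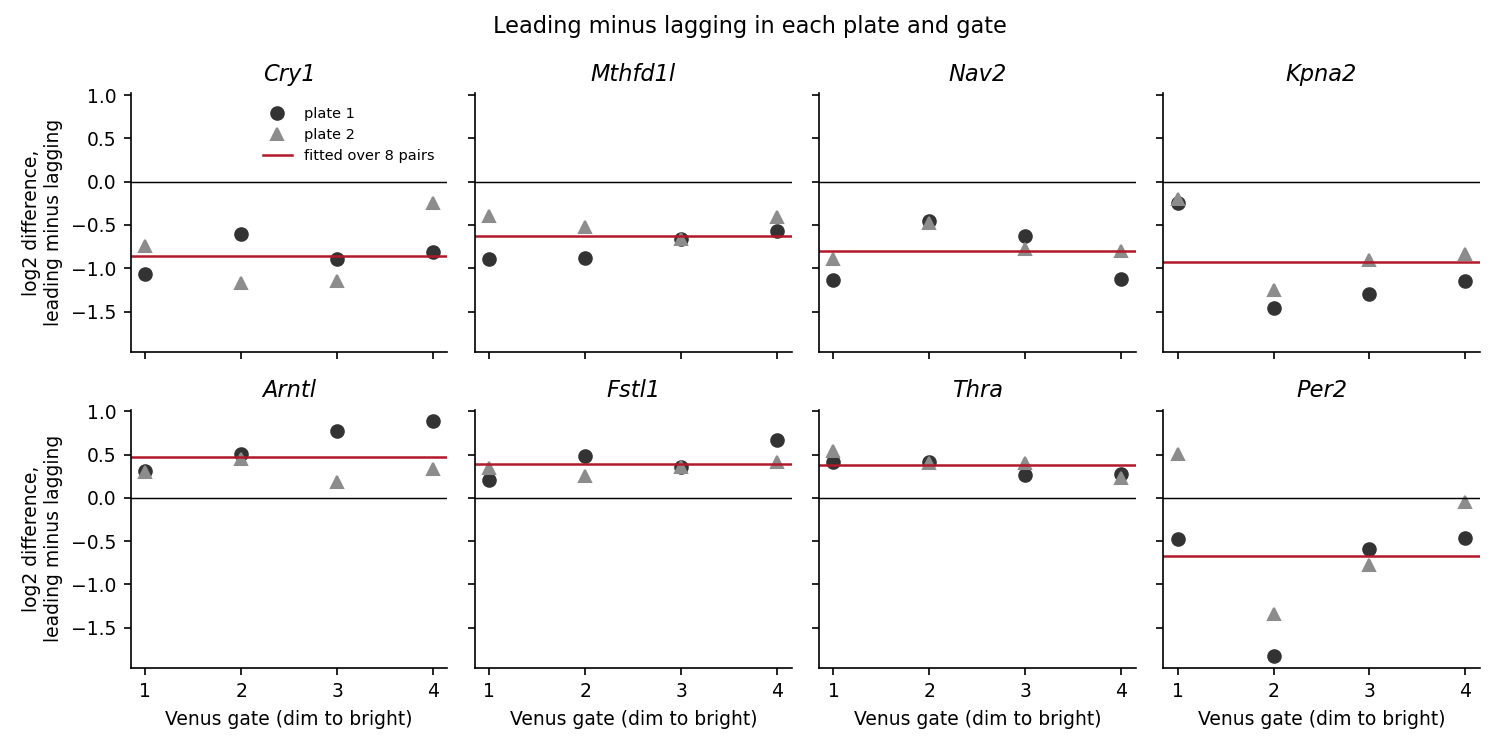
Log2 difference, leading minus lagging, of CPM plus 0.5 (vertical axis) in each Venus gate of plate 1 (circles) and plate 2 (triangles) for 8 genes, with the value fitted over all pairs as a red line. Points of Cry1, Mthfd1l, Nav2 and Kpna2 all lie below 0 and those of Arntl, Fstl1 and Thra above 0, while Per2 runs from -1.83 to 0.51.

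A further 12 genes were called but fell outside the naming rule, and they were singled out after their values were seen. Bcar1, Pdcd4, Pde4dip and Atp6v0d1 were higher, and Ly6a was lower, by smaller amounts than those named. Of the genes under a mean log2 CPM of 3, Lrrc17 was higher and Siglecg, Cdc7, Ccsap and Lin9 were lower. The other two were a predicted gene and a feature without a symbol, both higher. Cdc7, a kinase that fires replication origins, averaged 5.40 ± 1.70 CPM in lagging and 2.80 ± 0.56 CPM in leading cells. Lin9, a subunit of the DREAM and MuvB complexes, averaged 7.59 ± 1.22 and 4.79 ± 0.67 CPM.

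Kpna2, Bub3, Cdc7 and Lin9, called above, have roles in the cell cycle and belong to neither cell cycle list. Of 43 S phase genes, 0 were called, 41 lay below 0 and 32 had an unadjusted p under 0.05 and were lower in leading cells. Their median was -0.60 log2, against 0.01 over all genes, of which 6.41% had such a p and were lower. Of 54 G2/M genes, 0 were called, 50 lay below 0 and 23 had such a p, with a median of -0.55. The mitotic kinase Aurkb averaged 28.8 ± 15.7 CPM in lagging and 6.09 ± 5.23 CPM in leading cells, and its log2 difference was -2.28 ± 0.42 (edgeR adjusted p = 0.053). DESeq2 called 18 of the S phase and 8 of the G2/M genes, all lower, and limma 0 of either. Among the 13868 genes that edgeR tested, DESeq2 called 217 lower and 127 higher, and limma 13 lower and 6 higher. Without the dimmest gate, edgeR called 24 of the 43 and 29 of the 54, all lower in leading cells, with medians of -0.83 and -1.05. Over all genes, that fit called 260 lower and 110 higher of 14014 tested. The mean cell held 939 CPM summed over the S phase list in lagging, 759 CPM in middle and 658 CPM in leading cells, and 2434, 1964 and 1857 CPM over the G2/M list. The median cells were close together, at 517, 527 and 508 CPM for S phase and 1076, 1079 and 1046 CPM for G2/M. Cells above 2 times their plate's median for either sum numbered 35 of 255 lagging, 33 of 257 middle and 40 of 255 leading cells, and 41 cells lay between 1.6 and 2.5 times the median.

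The comparison was repeated on the 659 cells left once those 108 cells were removed, an alternative added after the data were seen. Kpna2 then stood at -0.10 log2, the S phase median at -0.0017 over 37 genes and the G2/M median at -0.10 over 45 genes. Cry1 stood at -1.04 log2 (adjusted p = 0.0148 by edgeR) and Arntl at 0.43 log2 (adjusted p = 0.0954), and 18 genes were called, of which 13 were among the 32. Per2 stood at -1.02 log2 (adjusted p = 0.215). Because the cells were removed by these sums, smaller medians of both lists follow from the removal itself and are given as a description.

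**Figure D4:**
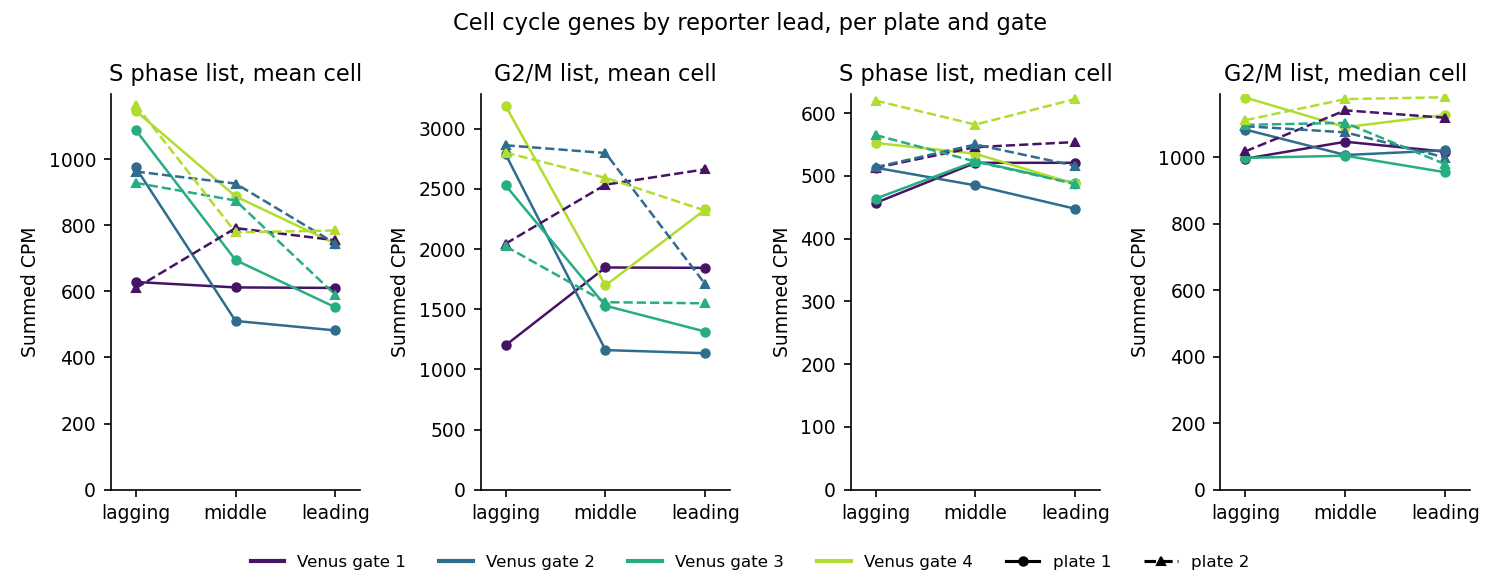
Summed CPM of the S phase and G2/M lists (vertical axes, linear from 0) in the mean cell and in the median cell of each group; each line is 1 gate on 1 plate. The mean falls from lagging to leading in 7 of 8 pairs for S phase and in 6 of 8 for G2/M, while the medians differ little.

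The remaining lists held 0 called genes by edgeR and 0 by limma, so their values are given by count and median. Over all genes tested, 5.91% were higher and 6.41% lower at an unadjusted p under 0.05. Among these 13868 genes, DESeq2 called 127 higher and 217 lower. The lists are short, and 1 of 9 genes is 11.1% and 2 of 9 are 22.2%, so such shares rest on few genes. Of 16 immediate early genes, which respond to growth factor and stress signals, 5 were higher and 2 lower at an unadjusted p under 0.05, with a median of 0.18. Junb, an AP-1 subunit, stood at 0.55 ± 0.11 log2 (edgeR adjusted p = 0.0706). DESeq2 called 1 gene of this list, higher. Of 14 collagen and matrix genes, 13 lay above 0 and 6 were higher at such a p, with a median of 0.14, and DESeq2 called 3, all higher. Col1a2, a chain of type I collagen, stood at 0.16 ± 0.03 log2 and Fn1, fibronectin, at 0.33 ± 0.08 log2. Of 11 SRF targets tested, which encode mostly actin cytoskeleton proteins, 10 lay below 0 and 4 were lower at such a p, with a median of -0.12, and DESeq2 called 1, lower. Of 9 YAP/TAZ targets tested, 3 were lower and 1 higher at such a p, with a median of -0.18, and DESeq2 called 1, lower. Of 9 temperature-responsive chaperones and RNA-binding proteins tested, 4 were lower at such a p, among them the mitochondrial chaperones Hspd1 at -0.17 and Hspe1 at -0.10 log2, and DESeq2 called 1, lower. Of 16 cholesterol genes, 0 had such a p, with a median of -0.06. Of 9 glucocorticoid receptor targets tested, 2 were higher and 1 lower at such a p, with a median of -0.02. The 8 fibroblast markers were all tested, with 4 higher and 1 lower at such a p and a median of 0.07, and DESeq2 called 2, higher. Of 13 markers of other cell types, 10 of the 12 found in the table had medians under 1 CPM in both groups and 2 were at 0 throughout. Of these markers 3 were tested, with a median of -1.01 log2. Des and Pecam1 were lower in leading cells at such a p, and DESeq2 called 1 of the 3, lower. Cdh1, the most abundant of the 3, stood at 0.12 log2. All 3 were low, with medians in lagging and leading cells of 4.38 and 3.95 CPM for Cdh1, 3.04 and 1.61 CPM for Des and 0.77 and 0.27 CPM for Pecam1. The list median lay below 0 in 7 of 8 pairs. The summed level of the 12 ranged from 4.85 to 12.3 CPM in lagging and from 5.06 to 13.5 CPM in leading cells.

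The joint fit also showed called genes gathered on 1 chromosome. Of the genes called for the reporter transcript, 33 could be placed and had a mean log2 CPM of 4 or more, and 9 of these lay on chromosome 8, which holds 5.38% of all genes so placed. All 9 were higher with more reporter transcript. They were Bcar1, Mbtps1, Hsbp1, Map1lc3b, Zdhhc7, Znrf1, Hsdl1, Nfat5 and Cox4i1, singled out after their values were seen. Along gene order, a running median over 41 genes reached its highest value in the genome there, at 0.16 log2 between St3gal2 and Banp, against 0.07 log2 for the highest window on any other chromosome. Of these 41 genes, 36 lay above 0, against 52.9% of all genes so placed, and 8 were called. The window was chosen for its high median, so the count above 0 follows in part from that choice. Bcar1, an adaptor protein of focal adhesions, stood at 0.34 ± 0.05 log2 for the transcript and at -0.12 log2 for the protein. Map1lc3b, an autophagosome protein, stood at 0.25 ± 0.04 log2 and -0.01 log2. For the protein the same window had a median of 0.01 log2, and in cells ranked on iRFP in the same way it had one of -0.0036. In the comparison of leading with lagging cells it had a median of 0.12 log2, close to the 0.11 log2 of a window on chromosome 16. There 35 of the 41 genes of the chromosome 8 window lay above 0, against 54.7% of all genes so placed, and 1 was called.

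The stretch also differed between gates. The median cell held 3947 to 4480 CPM summed over the 41 genes in gates 1 to 3 of both plates, and 6249 CPM in gate 4 of plate 1 and 6158 CPM in gate 4 of plate 2. In gate 1, the Spearman correlation of that sum with the reporter transcript was 0.501 on plate 1 and 0.487 on plate 2, over cells of 1 library plate, against -0.012 and -0.086 in gate 2, 0.360 and 0.122 in gate 3 and 0.192 and 0.203 in gate 4. When cells were ranked separately below and above the median of this sum, Cry1 stood at -0.76 log2 (adjusted p = 0.0939 by edgeR) and Arntl at 0.43 log2 (adjusted p = 0.112), with 10 genes called, all of them among the 32. The position of the reporter insertion and the copy number of this stretch were not tested.

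**Figure D5:**
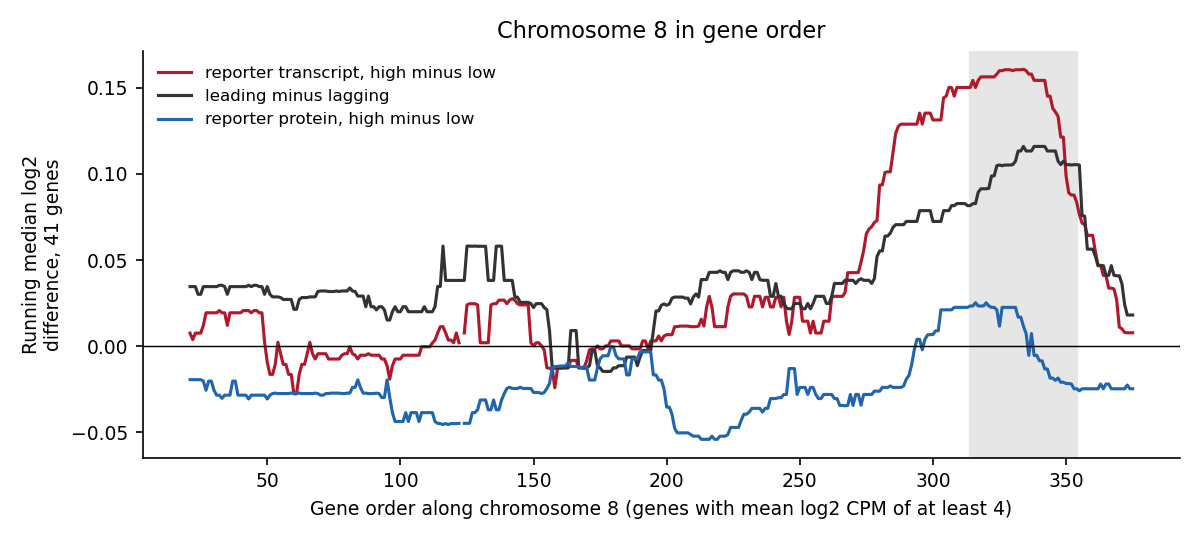
Running median over 41 genes of the log2 difference (vertical axis) along the gene order of chromosome 8 (horizontal axis) for the reporter transcript (high minus low), leading minus lagging cells and the reporter protein (high minus low), with the stretch between St3gal2 and Banp shaded. The transcript line reaches 0.16 there and the line of leading minus lagging cells 0.12, while the protein line stays near 0.

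The same ranking was made with the iRFP transcript and the iRFP signal, as a comparison with a reporter that is not tied to the clock. It gave 0 calls among 13870 genes by edgeR, with 964 genes at an unadjusted p under 0.05. Cry1 stood at 0.23 ± 0.17 log2 and Arntl at 0.04 ± 0.11 log2. Of the 43 S phase genes, 38 lay below 0 in this ranking, with a median of -0.27 log2. At such a p 11 of them were lower (25.6%, against 3.55% of all genes). Of the 54 G2/M genes, 33 lay below 0 and 0 had such a p, with a median of -0.08. Of the 14 collagen and matrix genes, 13 lay below 0 and 5 were lower at such a p, with a median of -0.09. The iRFP transcript itself was higher in cells leading on Venus in 7 of 8 pairs, at 31.5 ± 13.3 against 27.8 ± 11.6 CPM, without passing the threshold (adjusted p = 0.271 by edgeR).

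Of 13 sorting-record and library measures compared by an exact two-sided sign-flip permutation test over the 8 pairs, 0 passed after adjustment, where 0.00781 is the smallest unadjusted p this design allows. Leading cells had fewer genes detected in 7 of 8 pairs and in none more, at a mean of the medians of 11006 ± 131 against 11206 ± 186 genes (exact permutation p = 0.0156, adjusted p = 0.102). Their forward scatter area, which is related to cell size, was lower in 7 of 8 pairs, by -0.12 ± 0.11 log2 (SD, n = 8; exact permutation p = 0.0234, adjusted p = 0.102). Fluorescence in the violet-laser detector was also lower in 7 of 8 pairs, by -0.14 ± 0.13 log2, with the same p-values. Side scatter and light loss areas were lower in 7 of 8 pairs as well, by -0.06 ± 0.07 log2 (exact permutation p = 0.0469) and -0.09 ± 0.09 log2 (exact permutation p = 0.0391), both with an adjusted p of 0.102. Plate position differed too, with the median well row of leading cells further along in 6 of 8 pairs, by 1.38 ± 1.36 rows (exact permutation p = 0.0312, adjusted p = 0.102), while the median well column differed by 0 on average. The size of the cell image differed by -0.01 ± 0.03 log2. Total counts differed by -0.01 ± 0.05 log2, and the mitochondrial share was 8.46 ± 1.18% in leading and 8.23 ± 1.03% in lagging cells. The part of scatter, violet signal and well row in the gene differences was not tested. With cells ranked separately below and above the median sequencing depth, Cry1 stood at -0.76 log2 (edgeR adjusted p = 0.0514).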

How the data were processed

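The authors deposited whole-number gene counts per cell and a sorting record with intensity values per cell in arbitrary units. Per the submitters' processing notes, STAR 2.7.11a, SAMtools, bedtools and HTSeq and the builds GRCm39 and mm39 were used; strand, molecular identifiers and compensation were not given in the sources used here. PCR reads without identifiers are not independent molecules. The labels describe 1 sorted cell per well, so doublets were not called. Of 33757 features, 24902 matched a symbol, and features without one held 1.07% of counts. RefSeq positions of another build served for gene order, and the promoter windows came from the GRCm38.p6 build.

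Counts were summed per rank group, gate and plate and tested with edgeR 4.0.16 in R 4.3.3 (filterByExpr, TMM, quasi-likelihood F-test, the gate and plate as block, 7 residual degrees of freedom, Benjamini-Hochberg adjustment). YFP and Nr1d1 received no test. CPM values use TMM library sizes except for untested genes. DESeq2 1.42.0 and limma 3.58.1 (log2 of mean CPM plus 1) were alternatives. Named genes were the 10 largest differences in each direction past the threshold with a mean log2 CPM of 3 or more and 1 sign on both plates, without predicted genes and pseudogenes, plus the clock lists. Members and lists were chosen with earlier results of these data known. The edgeR script was tested on simulated data.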

Additional observations from a re-analysis of the deposited data

Results flagged for a closer look

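For 7 genes the difference between leading and lagging cells varied between Venus gates by edgeR's quasi-likelihood test of the interaction, 0.0505% of 13868 genes tested, with 1064 at an unadjusted p under 0.05. Among the G2/M genes Kif20b (adjusted p = 0.0171), Ube2c (adjusted p = 0.0309) and Aurka (adjusted p = 0.0455), leading cells were higher in gate 1, by 1.14, 0.58 and 0.82 log2, and lower in gate 2, by -2.53, -3.36 and -3.30 log2. Trim59 (adjusted p = 0.0309) had the same order, at 0.44 in gate 1 and -1.25 log2 in gate 2. Tgfbi, a matrix protein (adjusted p = 0.00222), Gpnmb, a membrane glycoprotein (adjusted p = 0.00735), and Jun, an AP-1 subunit (adjusted p = 0.0309), had the opposite order, at -1.45, -1.57 and -0.90 log2 in gate 1 and 0.50, 1.32 and -0.16 log2 in gate 2. Each gate was represented by 2 pairs, 1 per plate. Cells above 2 times the plate median of a cell cycle sum numbered 1 lagging and 3 leading cells in gate 1 of plate 1 and 6 lagging and 1 leading in gate 2 of that plate. On plate 2 such cells numbered 3 lagging and 7 leading in gate 1 and 5 lagging and 4 leading in gate 2. Their part in these differences was not tested. The light loss area stood apart in gate 4 of plate 2, where leading cells were higher by 0.106 log2, while the other 7 pairs lay between -0.18 and -0.06. It was the only such value among 51 sets of 8 pairs screened, where chance gives about 1 in 20.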

How the results depend on the processing

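All 32 called genes kept their direction under each of the 26 alternatives (24 planned and 2 chosen after seeing the data), but the number called did not hold. It was 344 with DESeq2, 231 without a filter on low counts, 111 with the outer groups of 4, 0 with 2 groups, 202 with a residual score, 21 with depth-balanced ranks, 19 with limma on mean CPM, 370 without the dimmest gate, 18 without cycling cells and 10 with ranks balanced on the chromosome 8 stretch. Without the replicate block, in which each leading sum is paired with the lagging sum of its gate and plate, it was 3. Leaving out 1 pair or plate gave 0 to 136. Library totals without TMM gave 22, of which 31.8% were higher against 17 of 32 with TMM; the median of all genes moved to -0.01. Clock genes called numbered 0 to 2 when a pair or plate was left out, 0 with 2 groups, depth-balanced ranks or the stretch-balanced ranks, and 1 without TMM, without the block, with the blue-laser detector, the stricter cell filter, thinned cells, limma or no cycling cells.

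Cry1 was called under 19 of 26 alternatives and ranged from -0.95 to -0.81 when a pair or plate was left out. It lost its call with 2 groups (-0.62), depth-balanced ranks (-0.76) and stretch-balanced ranks (-0.76). Without gate 4 of plate 1 or gate 3 of plate 2 its adjusted p by edgeR was 0.0502 and 0.0508. Arntl ranged from 0.33 to 0.62 when a pair or plate was left out. With 1 pair left out, Arntl kept its call only without gate 1 of plate 2 (adjusted p = 0.0287 by edgeR). It was called on neither plate alone. It lost its call without TMM (0.46), without the block (0.43), with 2 groups (0.34), the residual score (0.39), the blue-laser detector (0.44), the stricter cell filter (0.47), thinned cells (0.43), depth-balanced ranks (0.44), limma (0.43), without cycling cells (0.43) and with stretch-balanced ranks (0.43). Per2 passed the threshold only under the residual score, at -1.15 log2 (adjusted p = 0.0495 by edgeR). Without cycling cells the RORE median moved to -0.18 and the S phase median to -0.0017. The list medians with a pair or plate left out were -0.14 to -0.02 for the E-box and D-box genes, -0.09 to 0.07 for the RORE genes, -0.78 to -0.32 for S phase and -0.83 to -0.38 for G2/M. The cause of these changes was not tested. A plate alone holds 4 pairs, which limits its calls.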
